A study of Homo sapiens with 18 samples.

Results

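The transcripts described here are those of 8 genes whose proteins let a cell register an extra set of centrosomes, a long mitosis or a failed division and pass that state to the tumour suppressor p53. They are PIDD1, CRADD, CASP2, ANKRD26, LATS1, LATS2, USP28 and TP53BP1. They were listed by name rather than by a rule on measured values, though with earlier results of these data known. By Ensembl identifier they were found as 8 of the 57773 genes of the deposited expression table. The messenger RNA came from RPE1, a human retinal pigment epithelium line immortalised with telomerase, in 6 clones with 3 libraries each (A, B and C, given as biological replicates), 18 in all. All 6 clones, diploid ones included, descend from cells kept for 72 h in 2.5 uM ZM447439, an Aurora kinase inhibitor that lets cells leave mitosis undivided, and then grown for weeks before single cells were cloned. Each of the 3 tetraploid clones, 4N-1, 4N-2 and 4N-3, is paired with a diploid clone from the same plates, 2N-1, 2N-2 and 2N-3. Ploidy was read by flow cytometry, and both clones of pair 2 had also been stained with a Hoechst dye before a further round of cloning. Each group is thus 1 clone that had already resumed growth, and a test within a pair compares libraries of 2 clones, not tetraploid with diploid cells in general.

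ANKRD26 is a protein of the distal appendages, the spokes of the mature centriole, and it brings PIDD1 to that site. When more than 1 mature centriole is present, PIDD1 can assemble with the adaptor CRADD (also called RAIDD) and with the protease caspase-2, encoded by CASP2, into the PIDDosome. Caspase-2 then cuts MDM2, the ubiquitin ligase that keeps p53 low, and p53 accumulates. LATS1 and LATS2 are kinases of the Hippo pathway that restrain YAP and TAZ after a failed division, and LATS2 also binds MDM2. USP28, a deubiquitinase, and 53BP1, the product of TP53BP1, bind p53 after a prolonged mitosis or the loss of centrosomes and stop the daughter cells. All these steps act on proteins, whereas the values below are levels of messenger RNA.

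Levels are reads per M, the reads of a gene per mega (M) of the library's effective size as recovered from the deposited RPKM values, with the SD over 3 libraries. They are relative to the other RNA of the same library, so that fewer expressing cells and less RNA per cell cannot be told apart. Changes are log2 values of the tetraploid over the diploid clone with the standard error (SE) of a limma fit over all 18 libraries. A transcript is called risen or fallen if its p-value, adjusted by Benjamini-Hochberg over 23416 tested genes, was below 0.05. All 8 genes passed the minimum of 10 reads in 3 libraries, with between 298 and 589 reads per library for CRADD, the lowest, and between 2299 and 6157 for TP53BP1, the highest.

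Depth was even, with 37.2 to 54.4 M reads in genes per library. The markers of RPE identity were in part near 0, since RPE65, TYR, PMEL, RLBP1 and TTR stayed under 1 read per M in every library, but none was at 0 throughout. The 12 RPE markers together had a summed level of 642 to 1022 reads per M, and all 11 measured markers of other cell types stayed under 1 read per M, with CD3E and HBB at 0. A pair of libraries of pair 3 stood apart and bears on the results below. Library A of 2N-3 differed from libraries B and C of its clone by a median absolute log2 difference of 0.421, against 0.0495 to 0.221 for the other 17 libraries. Library C of 4N-3 was the most deviant library outside that clone, with 0.173, and is the low library of its clone for the kinases PLK4 and PLK1. Libraries B and C of 2N-3 had 0.221 and 0.219, each against a mean that includes library A, and were kept. Every count of risen or fallen genes below was therefore also made without those 2 libraries.

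Among the 8 transcripts, 2 had changes that passed the test with all libraries. CASP2 fell in 4N-1 relative to 2N-1, and USP28 fell in 4N-2 relative to 2N-2. No transcript rose in any pair with all libraries. The single fall in pair 1 stands beside 9.15% of all tested genes that fell there and 9.88% that rose, and the single fall in pair 2 beside 21.3% that fell and 19.9% that rose. In pair 3 none of the 8 passed in limma, where 3.14% of genes fell and 3.57% rose, and 1 of them, LATS2, had an unadjusted p under 0.05 (0.0237). The count was 0 with limma-voom as well. With 8 genes, a count of 1 is near these shares and is no result about the group. The stretches of sequence just upstream of the first annotated exon of the 2 genes that fell, from RefSeq (GRCh38.p14), are shown because they are the members whose transcripts passed the test, and are written 5′ to 3′ on the strand of the gene.
CASP2, chr7:143288101-143288214, plus strand, with a CCAAT box in capitals: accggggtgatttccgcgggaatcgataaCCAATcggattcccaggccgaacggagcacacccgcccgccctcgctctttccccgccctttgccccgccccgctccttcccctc
USP28, chr11:113875573-113875822, minus strand, with none of the searched motifs and hence no capitals: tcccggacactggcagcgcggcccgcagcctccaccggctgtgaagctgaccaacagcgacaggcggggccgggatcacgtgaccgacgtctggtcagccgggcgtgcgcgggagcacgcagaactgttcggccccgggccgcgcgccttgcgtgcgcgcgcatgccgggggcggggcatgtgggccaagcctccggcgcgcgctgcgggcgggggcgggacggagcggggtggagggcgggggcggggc

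The search covered windows of 250 bases before to 50 bases after the RefSeq start on both strands, for the E2F motifs TTTCCCGC and TTTGGCGC, the cell cycle homology region TTTGAA, the CCAAT box CCAAT, the TEAD motif GGAATG, the ETS motif CCGGAAGT and a motif of p53. These letters do not overlap between motifs in any of the 8 windows. The CCAAT box was found in 3 of the 8 windows, those of CASP2, ANKRD26 and TP53BP1, and in 34.6% of 35116 RefSeq promoter windows. The CASP2 window held it at both 221 bases before the start, the copy in capitals, and 101 bases before the start on the other strand, which lies past the printed stretch. The TEAD motif, the letters bound by the partners of YAP and TAZ, was found in the LATS2 window and in 14.0% of all windows. The remaining motifs were in none of the 8 windows, and in 0.652% to 15.2% of all windows. The PIDD1 window lay inside the annotated gene, up to base 805481 of chromosome 11, and not at its 5′ end at base 809753. It therefore does not cover the promoter at that end. Both printed genes have promoters rich in CpG, with 35 CpG dinucleotides in the CASP2 window and 44 in the USP28 window, against a median of 14 over all windows.

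CASP2 (ENSG00000106144, chromosome 7, 143288215 to 143307696 on the plus strand of GRCh38) encodes the protease of the PIDDosome and had the widest range of the 8 transcripts across the clones. It had 27.9, 26.8 and 26.9 reads per M in libraries A, B and C of 4N-1, against 39.1, 38.8 and 46.4 in 2N-1. Every library of 4N-1 lay below every library of 2N-1. The change was -0.60 (SE 0.15, adjusted p = 0.00867), a 0.660-fold level with a 95% interval of 0.530 to 0.821. Without library C of 2N-1 it was -0.52 and did not pass (adjusted p = 0.0553). In pair 2 the order was the opposite, with 43.5, 43.2 and 44.8 reads per M in 4N-2, against 34.1, 32.1 and 39.7 in 2N-2. The libraries again did not overlap, but the change of 0.32 (SE 0.15) did not pass with all libraries (adjusted p = 0.101). It passed without library A of 2N-3 (adjusted p = 0.0446), without library C of 4N-3 (adjusted p = 0.0267) and without both (adjusted p = 8.16e-04), none of which belongs to pair 2. In the common fit, leaving them out changed the estimate of the spread.

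In pair 3, CASP2 had 46.0, 47.0 and 29.8 reads per M in 4N-3, against 28.2, 35.7 and 38.9 in 2N-3. Library C of 4N-3 and library A of 2N-3 were each the low one of their clone, and the groups overlapped. The change was 0.24 (SE 0.15, adjusted p = 0.346) with all libraries. It was 0.45 (adjusted p = 0.0261) without library C of 4N-3 and 0.11 (adjusted p = 0.776) without library A of 2N-3. Without both it was 0.32 (adjusted p = 0.0161). Library C of 4N-3 was set aside in part for its low PLK4 and PLK1 and was itself low for CASP2. The passes of CASP2 without it are thus not independent of that choice. The changes differed between the pairs (moderated F test, adjusted p = 0.00327), by 0.92 (SE 0.21, adjusted p = 0.00246) for pair 2 minus pair 1 and by 0.84 (SE 0.21, adjusted p = 0.0177) for pair 3 minus pair 1. CASP2 was the only one of the 8 whose changes differed between pairs with all libraries, beside 41.4% of all tested genes.

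PLK4, the kinase that starts centriole duplication, had 13.0, 14.5 and 14.8 reads per M in 4N-1, against 34.7, 38.5 and 42.7 in 2N-1. In pair 2 it had 50.9, 48.3 and 57.0 in 4N-2, against 29.0, 23.8 and 36.0 in 2N-2. In library C of 4N-3 it had 24.5 reads per M, against 43.7 and 43.9 in libraries A and B of that clone. PLK4, like CASP2, was thus lowest in the 3 libraries of 4N-1 and above its partner in 4N-2. Both were also low in library C of 4N-3. That library was set aside in part for its low PLK4, so this is no independent likeness. PLK4 fell in pair 1 (-1.44, SE 0.21, adjusted p = 8.62e-05) and rose in pair 2 (0.83, SE 0.21, adjusted p = 0.00353). Its change in pair 3 did not pass (0.26, adjusted p = 0.449). STIL, SASS6 and CEP192, which also act in centriole assembly, fell in pair 1 (-1.20, -0.88 and -0.53, adjusted p = 6.34e-04, 0.00243 and 0.0477). Their changes in pair 2 were 0.06, -0.17 and 0.04, none of which passed (adjusted p = 0.854, 0.501 and 0.889). STIL, SASS6 and CEP192 were named outside the naming rule given below, so they add no independent likeness to CASP2. The part of such genes in the CASP2 values was not tested. Of the 12882 candidates with 5 reads per M or more and over 1 Mb away, the 2 genes whose log2 levels were most like those of CASP2 over the 18 libraries were NUP155, a nuclear pore protein (Pearson r = 0.986, and 0.995 over the 6 clone means), and CENPJ, a protein of centriole elongation (r = 0.978, and 0.981 over the clone means). These are descriptions over libraries that share clones, not tests. The 20 genes with 5 reads per M or more on each side of CASP2 spanned chromosome 7 bases 139133744 to 149297302. Their median change in pair 1 was 0.09 (quartiles -0.02 and 0.46), so that the fall of CASP2 lay below their lower quartile.

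**Figure D1:**
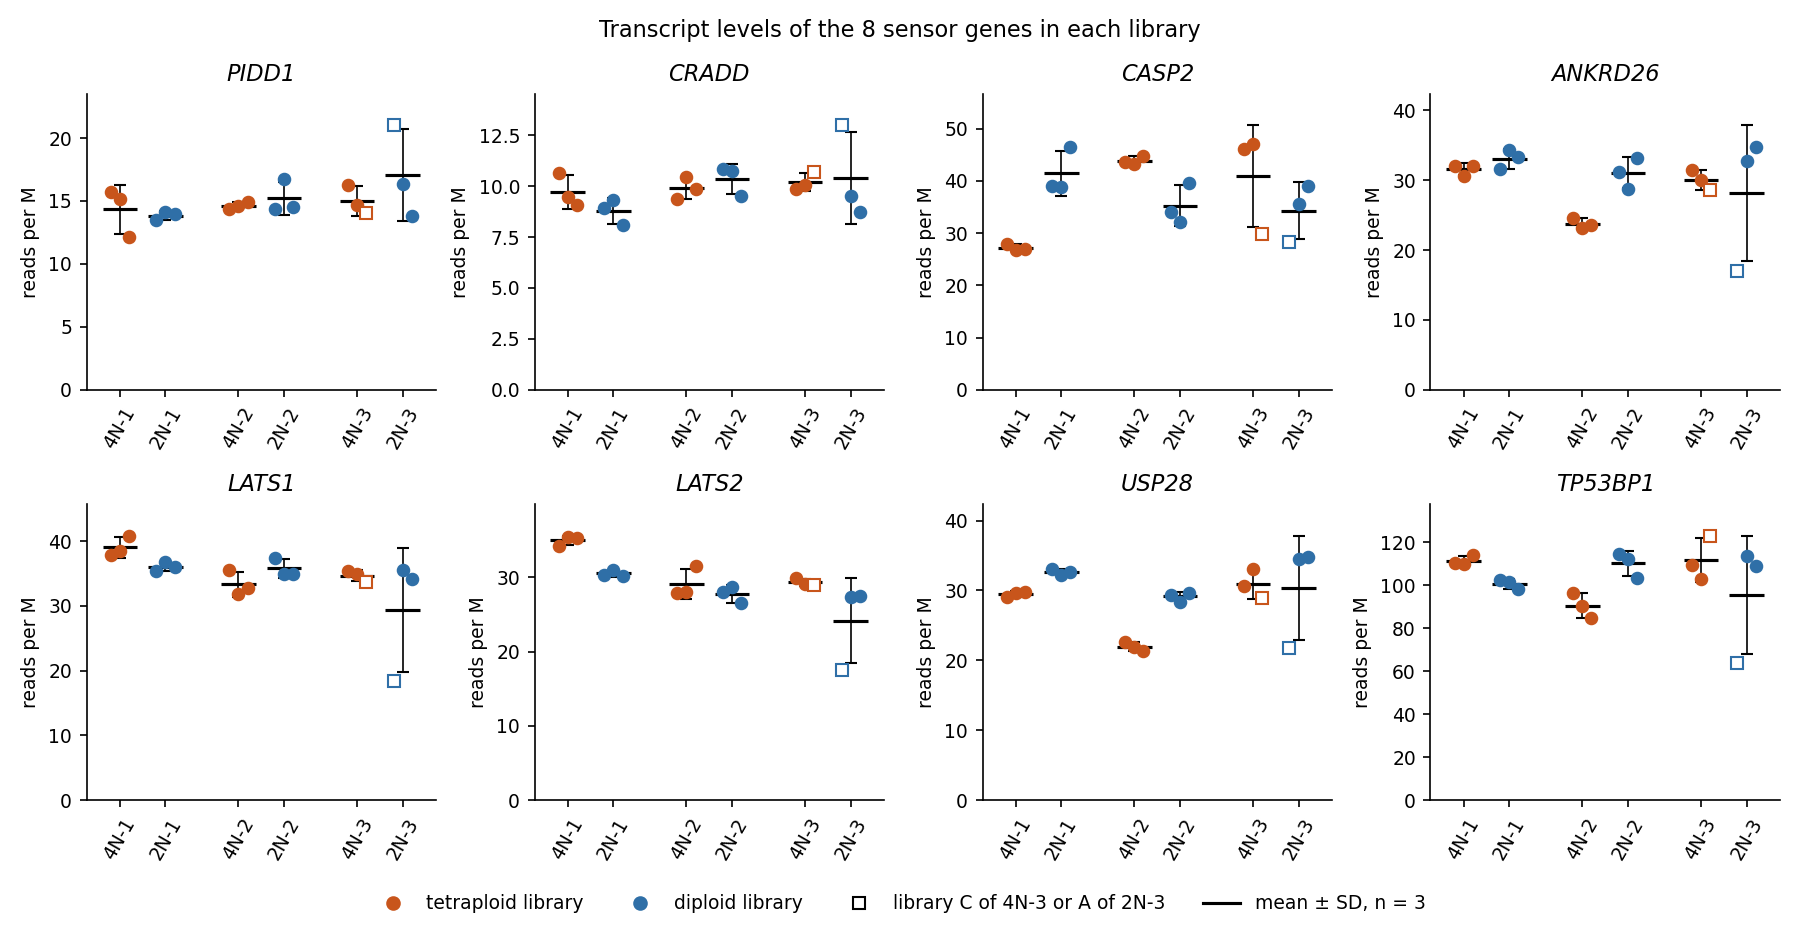
Reads per M of the 8 transcripts in each library, with the tetraploid clone left of the diploid clone of its pair and bars for the mean and SD of 3 libraries. CASP2 is low in all libraries of 4N-1 (26.8 to 27.9) and in library C of 4N-3 (29.8), USP28 is low in all libraries of 4N-2 (21.4 to 22.7), and library A of 2N-3 is low for 6 transcripts and high for PIDD1 and CRADD.

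PIDD1 and CRADD, the core and the adaptor of the same complex, were the least abundant of the 8 and varied little between clones. PIDD1 (ENSG00000177595, chromosome 11, 799179 to 809753 on the minus strand) had 15.8, 15.2 and 12.1 reads per M in 4N-1, against 13.5, 14.1 and 13.9 in 2N-1. It had 14.3, 14.6 and 14.9 in 4N-2, against 14.4, 16.7 and 14.5 in 2N-2. In pair 3 it had 16.3, 14.7 and 14.0 in 4N-3, against 21.0, 16.4 and 13.8 in 2N-3. The groups overlapped in every pair, and the 1 value above 17 came from library A of 2N-3. Its changes were 0.04, -0.06 and -0.17 in pairs 1, 2 and 3 (SE 0.13, adjusted p = 0.875, 0.774 and 0.454). The 5′ end of PIDD1 overlaps that of RPLP2, a ribosomal protein gene on the opposite strand, over chromosome 11 bases 809647 to 809753. RPLP2 had 247513 reads over the 18 libraries and PIDD1 had 11642. No source used here says whether counting used the strand, so part of the PIDD1 level may be RPLP2 reads.

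CRADD (ENSG00000169372, chromosome 12, 93677375 to 93894840 on the plus strand) had 10.6, 9.44 and 9.05 reads per M in 4N-1, against 8.93, 9.33 and 8.07 in 2N-1. It had 9.38, 10.5 and 9.85 in 4N-2, against 10.8, 10.8 and 9.49 in 2N-2. In pair 3 its levels were 9.85, 10.0 and 10.7 in 4N-3, against 13.0, 9.51 and 8.75 in 2N-3. The groups overlapped in all 3 pairs. The changes were 0.14, -0.06 and -0.01 (SE 0.13, adjusted p = 0.486, 0.725 and 0.965). No change of PIDD1 or CRADD in any pair passed without the 2 doubted libraries either, and the 95% intervals then lay within 0.845-fold and 1.26-fold. The CRADD gene shows how the deposited scale works, since its 217466 bases of genomic span hold 4276 bases of exons. Its deposited RPKM of 0.0403 to 0.0479 (clone means) is low for that reason, and a filter at 1 RPKM would drop it.

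ANKRD26 (ENSG00000107890, chromosome 10, 26991914 to 27100498 on the minus strand), the anchor of PIDD1 at the centriole, was lowest in 4N-2. It had 24.6, 23.2 and 23.6 reads per M in 4N-2, against 31.2, 28.7 and 33.2 in 2N-2, with no overlap. This change of -0.38 (SE 0.18) did not pass with all libraries (adjusted p = 0.0938). It passed without library A of 2N-3 alone (adjusted p = 4.54e-05) and without both doubted libraries (-0.38, SE 0.06, adjusted p = 9.60e-06), which corresponds to 0.768-fold with an interval of 0.706 to 0.836. In pair 1 it had 32.0, 30.6 and 32.0 in 4N-1, against 31.5, 34.2 and 33.3 in 2N-1, a change of -0.07 (SE 0.18, adjusted p = 0.849). In pair 3 it had 31.5, 30.0 and 28.5 in 4N-3, against 17.0, 32.7 and 34.7 in 2N-3. Library A of 2N-3 thus lay below all 3 libraries of 4N-3 and libraries B and C above them. The change in pair 3 was 0.16 (adjusted p = 0.596) with that library and -0.17 (adjusted p = 0.185) without it.

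LATS1 and LATS2, the kinases at the end of the Hippo cascade, had no fall that passed in any pair. LATS2 (ENSG00000150457, chromosome 13, 20973032 to 21061547 on the minus strand) had 34.3, 35.4 and 35.3 reads per M in 4N-1, against 30.3, 31.0 and 30.2 in 2N-1. It had 28.0, 28.0 and 31.5 in 4N-2, against 28.1, 28.8 and 26.5 in 2N-2. Its levels were 29.9, 29.0 and 29.0 in 4N-3, against 17.5, 27.4 and 27.5 in 2N-3. The libraries did not overlap in pairs 1 and 3 and were higher in the tetraploid clone there, and those of pair 2 overlapped. The changes were 0.20, 0.07 and 0.31 (SE 0.12, adjusted p = 0.312, 0.705 and 0.159). Without both doubted libraries LATS2 rose in pair 1 (adjusted p = 0.00658), by 1.15-fold with an interval of 1.06 to 1.24, and its change in pair 3 was 0.10 (adjusted p = 0.330). Without library A of 2N-3 alone the values were the same 0.20 in pair 1 (adjusted p = 0.0105) and 0.09 in pair 3 (adjusted p = 0.471), and without library C of 2N-3 the change in pair 3 was 0.42 (adjusted p = 0.0446).

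LATS1 (ENSG00000131023, chromosome 6, 149658153 to 149718256 on the minus strand) had 37.8, 38.4 and 40.9 reads per M in 4N-1, against 35.4, 36.7 and 36.1 in 2N-1. In pair 2 it had 35.5, 31.8 and 32.7 in 4N-2, against 37.4, 35.0 and 35.0 in 2N-2. In pair 3 it had 35.4, 35.0 and 33.7 in 4N-3, against 18.4, 35.6 and 34.2 in 2N-3. The groups did not overlap in pair 1 and overlapped in the other pairs. The changes were 0.11, -0.10 and 0.30 (SE 0.16, adjusted p = 0.700, 0.653 and 0.284). Without both doubted libraries the change in pair 3 was 0.01 and none of the 3 passed (adjusted p = 0.0981, 0.105 and 0.928).

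USP28 (ENSG00000048028, chromosome 11, 113797874 to 113875570 on the minus strand), the deubiquitinase of the mitotic surveillance route, was lowest in 4N-2. It had 22.7, 21.9 and 21.4 reads per M in 4N-2, against 29.4, 28.4 and 29.6 in 2N-2. The clones did not overlap, and each of the 3 libraries of 4N-2 was also below the same gene's level in the libraries of 4N-1, 2N-1 and 4N-3. The change was -0.41 (SE 0.13, adjusted p = 0.0167), a 0.755-fold level with an interval of 0.626 to 0.910. Without library C of 4N-2 it was -0.39 and did not pass (adjusted p = 0.0522), and without both doubted libraries it had an adjusted p = 5.11e-07. In pair 1 it had 29.0, 29.6 and 29.8 in 4N-1, against 33.0, 32.2 and 32.6 in 2N-1. This smaller difference of -0.15 (SE 0.13) also had no overlap and did not pass with all libraries (adjusted p = 0.490), but passed without library A of 2N-3 (adjusted p = 0.0465) and without both doubted libraries (adjusted p = 0.0241). In pair 3 it had 30.6, 33.1 and 28.9 in 4N-3, against 21.8, 34.6 and 34.8 in 2N-3. The change there was 0.05 (adjusted p = 0.826) with all libraries and -0.17 (adjusted p = 0.112) without library A of 2N-3.

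The 2 genes most like USP28 over the 18 libraries, of 12884 candidates, were PHIP (r = 0.979, and 0.978 over the clone means) and PKN2, a protein kinase (r = 0.960, and 0.967 over the clone means). Without library A of 2N-3 these were 0.976 for PHIP and 0.952 for PKN2. The 20 genes with 5 reads per M or more on each side of USP28 spanned chromosome 11 bases 108665025 to 118547280. Their median change in pair 2 was 0.13 (quartiles -0.19 and 0.33), and USP28 lay below the lower quartile.

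TP53BP1 (ENSG00000067369, chromosome 15, 43403061 to 43510728 on the minus strand), which encodes the scaffold that joins USP28 and p53, was the most abundant of the 8. It had 110, 110 and 114 reads per M in 4N-1, against 102, 101 and 98.1 in 2N-1, and it had 96.3, 90.5 and 84.8 in 4N-2, against 114, 112 and 104 in 2N-2. Its libraries thus did not overlap in either pair, and the directions were opposite. In pair 3 it had 110, 103 and 123 in 4N-3, against 63.7, 114 and 109 in 2N-3. The changes were 0.15, -0.28 and 0.27 (SE 0.15), none of which passed (adjusted p = 0.564, 0.145 and 0.284). Without both doubted libraries TP53BP1 rose in pair 1 (adjusted p = 0.0293) by 1.11-fold with an interval of 1.03 to 1.20, and fell in pair 2 (adjusted p = 9.06e-05) to 0.822-fold with an interval of 0.762 to 0.886. Without library A of 2N-3 alone the values were 0.0834 in pair 1 and 0.00106 in pair 2 as adjusted p. The change in pair 3 was -0.06 (adjusted p = 0.546) without both libraries. Its 3′ part overlaps TUBGCP4, a gamma-tubulin complex gene on the opposite strand, which had 14396 reads over the 18 libraries against 80842 for TP53BP1, so that part of either level may belong to the other.

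By the plain order of the values, the libraries of the clones did not overlap for 5 of the 8 transcripts in pair 1. LATS1, LATS2 and TP53BP1 were higher there, beside 26.3% of all tested genes, and CASP2 and USP28 lower, beside 23.5%. In pair 2 CASP2 was higher, beside 29.8%, and ANKRD26, USP28 and TP53BP1 lower, beside 31.0%. In pair 3 LATS2 alone was higher, beside 10.3%, and none was lower, beside 8.13%.

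The plot of changes shows the intervals with and without the doubted libraries. With all libraries 7 of 8 transcripts did not pass in pair 1, and their 95% intervals lay between 0.740-fold and 1.38-fold. Those of the 7 that did not pass in pair 2 lay between 0.595-fold and 1.55-fold, and those of all 8 in pair 3 between 0.737-fold and 1.56-fold. Without library A of 2N-3 and library C of 4N-3, 2 transcripts rose (LATS2 and TP53BP1) and 2 fell (CASP2 and USP28) in pair 1, beside 20.9% and 19.2% of all tested genes. In pair 2, 1 rose (CASP2) and 3 fell (ANKRD26, USP28 and TP53BP1), beside 28.3% and 29.5% of genes. In pair 3, 1 rose (CASP2) and none fell, beside 10.3% and 7.88% of genes. CASP2 did not pass there without library A of 2N-3 alone. The 4 transcripts that did not pass in pair 1 then had intervals between 0.879-fold and 1.24-fold, the 4 in pair 2 between 0.845-fold and 1.13-fold, and the 7 in pair 3 between 0.823-fold and 1.26-fold. Changes of CASP2, ANKRD26, USP28 and TP53BP1 then also differed between the pairs (adjusted p = 1.70e-07, 0.00614, 0.00339 and 1.62e-04), beside 62.1% of all tested genes.

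**Figure D2:**
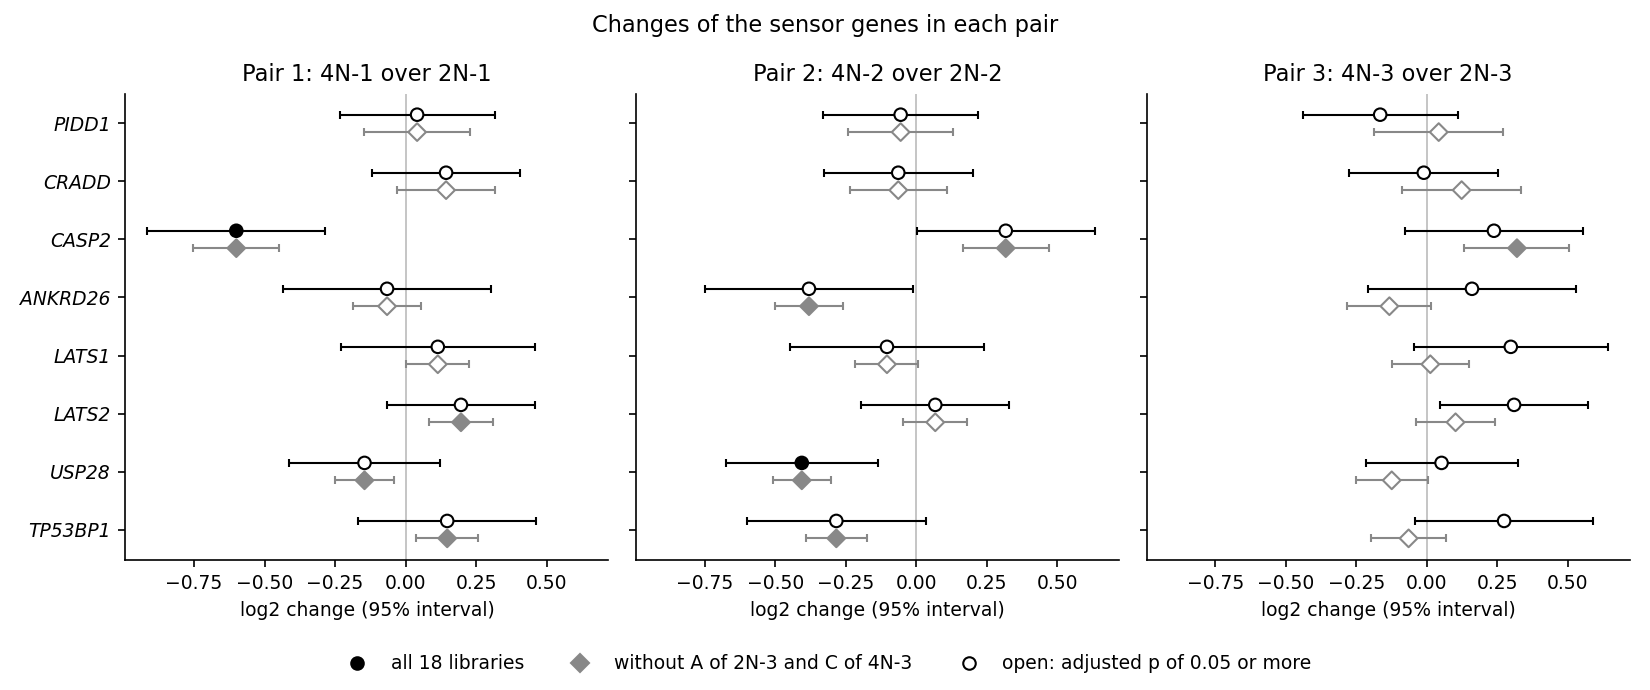
Log2 change of the tetraploid over the diploid clone with its 95% interval for each transcript and pair, from the fit of all 18 libraries (circles) and without library A of 2N-3 and library C of 4N-3 (diamonds), filled where the adjusted p was below 0.05. CASP2 lies at -0.60 in pair 1 and at 0.32 in pair 2, USP28 at -0.41 in pair 2, and the circles and diamonds of pair 3 are apart for most transcripts.

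Over genes with 5 reads per M or more, library A of 2N-3 shifted with summed exon length, which the 8 transcripts followed only in part. In that library, genes in the lowest quartile group of summed exon length were higher than in libraries B and C by a median log2 difference of 0.51, and those in the highest were lower, with -0.47. TP53BP1, LATS1 and ANKRD26, with 12991, 8643 and 7941 bases of exons, were lower by -0.80, -0.92 and -0.98. LATS2 and USP28 were lower by -0.64 and -0.67, and CASP2, with 8020 bases of exons, by only -0.40. PIDD1 and CRADD were higher, by 0.48 and 0.50. Length alone did not order them, since PIDD1 with 5869 bases of exons was higher and USP28 with 5719 was lower. The part of that library in the values of pair 3 is given above by leaving it out. Library C of 4N-3 showed no such slope, with medians of -0.06 to 0.00 over the quartile groups, and differed for CASP2 by -0.64 and for the other 7 by -0.14 to 0.21.

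**Figure D3:**
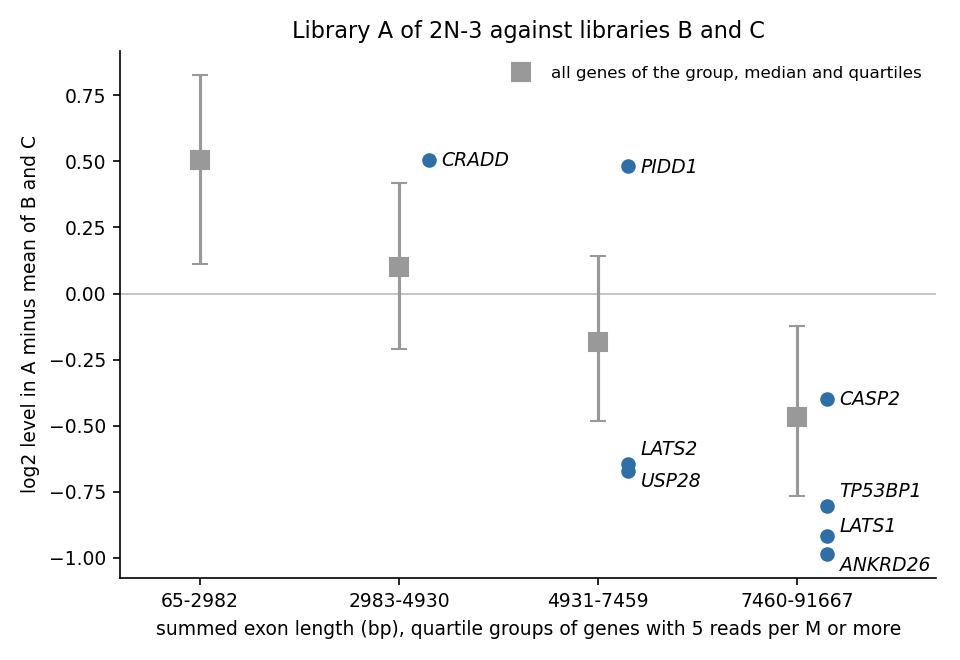
Log2 level in library A of 2N-3 minus the mean of libraries B and C. Squares with quartiles are quartile groups, by summed exon length, of genes with 5 reads per M or more. Circles are the 8 transcripts. The median falls across the groups, with 0.51 in the lowest and -0.47 in the highest, and 6 of the 8 transcripts lie below 0.

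Per kilobase of exon, TP53BP1 was the highest of the 8, with clone means of 6.97 to 8.62 reads per M per kilobase. The length is that of all annotated exons together. The sources do not say whether reads in introns were counted, and the order of genes on this scale may depend on that. LATS2 had 4.33 to 6.27, USP28 3.84 to 5.70, CASP2 3.39 to 5.46, LATS1 3.40 to 4.52 and ANKRD26 3.00 to 4.16. PIDD1 with 2.36 to 2.91 and CRADD with 2.05 to 2.44 were the lowest. The protease of the PIDDosome was therefore above its adaptor and its core in every clone on this scale. MDM2, the substrate through which the complex reaches p53, had 7.56 to 19.4.

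The order of the clones differed from gene to gene. On the scale of reads per M, the highest clone mean exceeded the lowest 1.61-fold for CASP2, 1.48-fold for USP28, 1.45-fold for LATS2, 1.39-fold for ANKRD26, 1.33-fold for LATS1, 1.24-fold for TP53BP1, 1.23-fold for PIDD1 and 1.19-fold for CRADD. Over the 12892 genes with 5 reads per M or more the median of that ratio was 1.45, with quartiles of 1.29 and 1.74, so that all 8 lay below the upper quartile and TP53BP1, PIDD1 and CRADD below the lower one. For CASP2 the order was 4N-2, 2N-1, 4N-3, 2N-2, 2N-3 and 4N-1, and only the last step separated libraries. For USP28 it was 2N-1, 4N-3, 2N-3, 4N-1, 2N-2 and 4N-2, and again only the last step did. For LATS2 it was 4N-1, 2N-1, 4N-3, 4N-2, 2N-2 and 2N-3, and the steps below 4N-1 and below 2N-1 separated libraries. LATS1 was separate only at its top clone, 4N-1, and TP53BP1 only between 2N-2 and 2N-1, the third and the fourth of its order. For PIDD1, CRADD and ANKRD26 each clone overlapped the next in order. With clones as the units, 3 tetraploid against 3 diploid, none of the 8 passed in limma with the pair as a block. The adjusted p was 0.992 or more, and 0 had an unadjusted p under 0.05. That fit called 0 of 23416 genes (0.0%), with 1069 at an unadjusted p under 0.05, and limma-voom on reads summed per clone called 0. The limma fit across clones therefore cannot show that the 8 were unchanged. MDM2, which rose in every pair, did not pass in it either (0.82, adjusted p = 0.797). Of the 20 p53 targets described below, 0 passed in it, with a median change of 0.83. Its intervals were wide, with -0.56 to 0.53 for CASP2 and -0.15 to 0.53 for LATS2.

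The p53 targets were the group that moved most uniformly. Of 20, pair 1 had 14 rises, pair 2 had 18 and pair 3 had 13, beside 9.88%, 19.9% and 3.57% of all tested genes. None of the 20 fell. The median changes of the list were 0.64, 1.27 and 0.58, against 0.02, -0.02 and 0.01 over all tested genes. Without the doubted libraries 18, 19 and 16 rose, beside 20.9%, 28.3% and 10.3% of all tested genes. CDKN1A, the inhibitor p21 that stops the cycle, had 339, 327 and 332 reads per M in 4N-1, against 143, 136 and 138 in 2N-1. Its changes were 1.26, 1.79 and 1.02 (SE 0.09, adjusted p = 5.44e-08, 1.34e-10 and 9.29e-07), and its libraries did not overlap in any pair. MDM2, itself a p53 target, rose by 0.42, 1.25 and 0.79 (SE 0.07, adjusted p = 6.07e-04, 6.06e-10 and 1.28e-06). The largest rises were those of SPATA18 (2.23, 4.19 and 1.61) and BTG2, an antiproliferative gene (1.19, 3.28 and 1.47), which passed in every pair. The list was chosen with its rise in these libraries already known, so that its direction is not independent evidence.

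**Figure D4:**
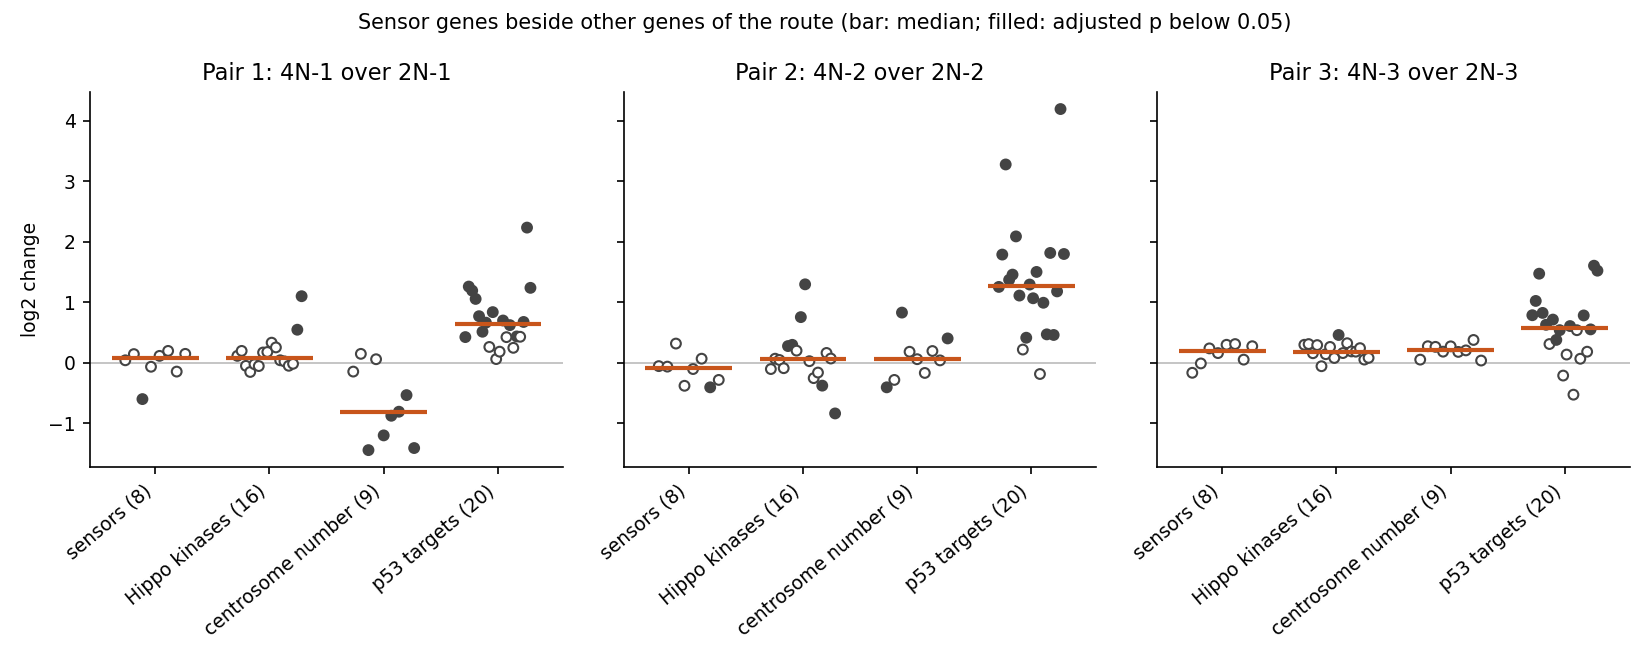
Log2 change of the tetraploid over the diploid clone for the 8 sensor transcripts, the 16 genes of the Hippo kinase module (labelled Hippo kinases, though not all are kinases), the 9 genes of centrosome number control and the 20 p53 targets, with the median as a bar and filled circles where the adjusted p was below 0.05. LATS1, LATS2, USP28 and TP53BP1 are drawn in more than 1 group. The medians of the p53 targets are 0.64, 1.27 and 0.58, against 0.08, -0.08 and 0.20 for the sensors.

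Genes that act with the sensors were counted from lists that in part hold the sensors themselves. The counts of these lists and of those below stand beside shares of all tested genes. With all libraries, 9.88% rose and 9.15% fell in pair 1, 19.9% and 21.3% in pair 2, and 3.57% and 3.14% in pair 3. Without the doubted libraries 20.9% rose and 19.2% fell in pair 1, 28.3% and 29.5% in pair 2, and 10.3% and 7.88% in pair 3. A count near its share is no result about a list, and no list was tested. Of 10 distal appendage genes, ANKRD26 included, pair 1 had 1 rise and 4 falls and pairs 2 and 3 had none, with median changes of -0.13, 0.09 and 0.07. CCDC92 rose in pair 1 (0.38, SE 0.09, adjusted p = 0.00571), and LRRC45 (-0.68, SE 0.19, adjusted p = 0.0168) and SCLT1 (-0.55, SE 0.11, adjusted p = 0.00227) fell there. Leaving out the doubted libraries gave 3 rises and 5 falls for pair 1, 2 rises and 3 falls for pair 2, and 1 rise and 2 falls for pair 3. For 8 PIDDosome components, partners and proposed substrates, the median changes were -0.30, -0.02 and -0.04. Pair 1 had 1 rise and 4 falls, pair 2 had 2 rises and 1 fall, and pair 3 had 1 rise. These counts became 1 rise and 5 falls, 3 rises and 1 fall, and 3 rises without the doubted libraries. BUB1B, the checkpoint kinase BubR1, fell in pair 1 (-1.34, SE 0.18, adjusted p = 3.66e-05), as did CHEK1 (-0.68, SE 0.13, adjusted p = 0.00149). BID, a pro-apoptotic protein that caspase-2 can cut, rose in pair 2 (0.66, SE 0.13, adjusted p = 7.12e-04).

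The other caspases had no common direction. Of 9 genes of caspases and the apoptosome, pair 1 had 1 fall, pair 2 had 2 rises and 3 falls, and pair 3 had neither, with medians of -0.01, 0.13 and -0.11. The doubted libraries left out, there were 2 rises and 1 fall, 4 rises and 3 falls, and 1 rise. In pair 2 the initiator CASP8 (0.72, SE 0.11, adjusted p = 3.18e-05) and CYCS, the cytochrome c that sets off the apoptosome (0.55, SE 0.16, adjusted p = 0.0107), rose. In the same pair CASP9, the initiator of the apoptosome (-1.02, SE 0.14, adjusted p = 1.58e-05), and CASP1, an inflammatory caspase (-0.78, SE 0.12, adjusted p = 5.56e-05), fell.

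The Hippo kinase module was counted over 16 genes, LATS1 and LATS2 included and not all of them kinases. Their median changes were 0.08, 0.06 and 0.19. Pair 1 had 2 rises, pair 2 had 4 rises and 2 falls, and pair 3 had 1 rise. In the fit without the doubted libraries there were 7 rises and 1 fall, 6 rises and 4 falls, and 2 rises and 2 falls. WWC1 (KIBRA), an upstream activator of LATS kinases, rose in pair 2 (1.30, SE 0.13, adjusted p = 3.56e-07) and less in size in pair 3 (0.46, adjusted p = 0.0404). STK38L, a kinase related to LATS, rose in pair 1 (1.10, SE 0.14, adjusted p = 3.08e-05) and fell in pair 2 (-0.84, SE 0.14, adjusted p = 1.26e-04). TAOK3 fell in pair 2 (-0.38, SE 0.10, adjusted p = 0.00523).

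YAP, TAZ and their direct targets, which LATS kinases restrain, had more rises than falls in pairs 1 and 2 but not in pair 3. Of 10, pair 1 had 5 rises and 1 fall, pair 2 had 5 rises and 2 falls, and pair 3 had 2 falls, with medians of 0.29, 0.34 and 0.03. With the doubted libraries left out there were 7 rises and 2 falls, again 7 rises and 2 falls, and 1 rise and 2 falls. CCN1 and CCN2, the matrix genes used most often as readouts of YAP, both rose in pair 1 (1.27 and 1.30). In pair 3 both fell (-0.92 and -0.84, adjusted p = 1.11e-05 and 9.92e-06). In pair 2 CCN1 fell (-0.41, adjusted p = 0.00428) and CCN2 did not pass (0.21, adjusted p = 0.0808). ANKRD1 rose in pair 1 (1.78, SE 0.12, adjusted p = 1.69e-08) and AMOTL2 in pair 2 (1.30, SE 0.12, adjusted p = 1.43e-07).

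Of 9 genes of mitotic surveillance and centrosome number, USP28 and TP53BP1 included, pair 1 had 6 falls, pair 2 had 2 rises and 1 fall, and pair 3 had neither, with medians of -0.81, 0.06 and 0.20. Without both doubted libraries there were 1 rise and 7 falls, 4 rises and 2 falls, and 1 rise. PLK1, a mitotic kinase, fell in pair 1 (-1.41, SE 0.16, adjusted p = 6.66e-06) and rose in pair 2 (0.40, SE 0.16, adjusted p = 0.0493). TRIM37, the ligase that limits centrosome function in the absence of centrioles, had changes of 0.06, 0.18 and 0.18 and did not pass (adjusted p = 0.710, 0.104 and 0.222). Of 12 partners of 53BP1 in break repair, pair 1 had 4 falls, pair 2 had 3 rises and 1 fall, and pair 3 had neither, with medians of -0.43, -0.12 and 0.12. That list had 2 rises and 9 falls, 3 rises and 4 falls, and neither once the doubted libraries were left out. BRCA1 fell in pair 1 (-1.23, SE 0.23, adjusted p = 0.00117) and rose in pair 2 (0.66, SE 0.23, adjusted p = 0.0309), and MDC1 likewise had -0.52 (adjusted p = 0.0376) and 0.44 (adjusted p = 0.0474).

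Of 6 regulators of p53, pair 1 had 1 rise, pair 2 had 2 rises and 2 falls, and pair 3 had 1 rise, MDM2 being the 1 in pairs 1 and 3. The medians were 0.11, 0.02 and 0.15, and without the doubted libraries there were 2 rises, 2 rises and 2 falls, and 1 rise and 1 fall. PPM1D, the phosphatase that reverses p53 activation, rose in pair 2 (0.47, SE 0.10, adjusted p = 0.00122). MDM4 (-0.60, SE 0.09, adjusted p = 5.64e-05) and COP1 (-0.37, SE 0.08, adjusted p = 0.00103) fell in that pair. The 9 RPE markers that could be tested had 3 rises in pair 1, 3 rises and 4 falls in pair 2, and neither in pair 3. Left without the doubted libraries they had 3 rises and 2 falls, 3 rises and 4 falls, and 3 falls. RPE65, at under 1 read per M (1.41 and -0.90 in pairs 1 and 2), BEST1 (0.83 in pair 2) and PAX6 (-1.06 in pair 2) were among them, all with adjusted p-values of 0.0331 or less.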

How the data were processed

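RNA was measured in 18 libraries of polyadenylated, strand-marked RNA. Per the submitters' processing notes, CASAVA 1.8.2, TopHat2, edgeR and the build hg19 were used by the authors. The counting tool, the annotation release, the use of the strand and the scaling are not given in the sources used here. The deposited values are RPKM, computed by the authors. Within a gene they are whole multiples of 1 read: 99.9996% of 561688 values above 0 came out whole within 0.01 reads. For 86.0% of 15831 genes with over 50 reads on average, the implied length lay within 0.5% of the genomic span, introns included. The reads and library divisors (36.1 to 54.8 M) so recovered gave reads per M. Positions and exon lengths came from GENCODE v29 (GRCh38), not hg19, matched by identifier (52338 genes), and promoter sequences from RefSeq by symbol (8 of 8).

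A gene was tested if at least 3 libraries held at least 10 reads of it. log2(reads per M + 0.1) was fitted with limma 3.58.1 (trend) in R 4.3.3, with a mean per clone and all libraries sharing 1 spread. Changes are on that scale, two-sided, and adjusted by Benjamini-Hochberg over all tested genes. Differences between pairs used the moderated F test, and ploidy across clones used clone means with the pair as a block. The fit was tested on simulated data. The labels give A, B and C as biological replicates without saying how they were separated, so p-values measure the spread between these libraries. The deviations of same-letter libraries from their clone means had correlations of -0.03 to 0.16 in pair 1, 0.19 to 0.50 in pair 2 and -0.26 to 0.05 in pair 3. All 3 were thus over 0.1 in pair 2 alone, a pairing seen in the data and not given by the labels.

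The 8 genes and the lists were chosen with earlier results of these data known. Named genes are the 8, MDM2, CDKN1A, PLK4, TRIM37 and, from each list, up to 2 with the largest rise and 2 with the largest fall among those that passed in any pair. For each of the 8 that passed, the 2 most correlated genes are named. STIL, SASS6 and CEP192 are named outside these rules. Alternatives were another pseudocount, filter, scaling and test, the replicate block, and leaving out libraries. Of 12 markers of other cell types, 11 were matched. Genes that are not reported here were left out of the lists before counting.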

Additional observations from a re-analysis of the deposited data

Results flagged for a closer look

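Changes of the tetraploid over the diploid clone differed between the 3 pairs for CASP2 and 23 genes named by the naming rule, cell type markers left out. The test was the moderated F test of limma over all 18 libraries, where 41.4% of all tested genes also differed. RPE65, PAX6 and BEST1, left out as markers, differed as well (adjusted p = 3.74e-04, 0.00225 and 0.0131). CASP2 had changes of -0.60, 0.32 and 0.24 (adjusted p = 0.00327). Genes of centriole duplication, mitosis and repair that fell in pair 1 and not in the others were PLK4 (-1.44, 0.83 and 0.26, adjusted p = 2.39e-05), PLK1 (-1.41, 0.40 and 0.04, adjusted p = 1.27e-05), BUB1B (-1.34, -0.05 and 0.04, adjusted p = 3.57e-04), BRCA1 (-1.23, 0.66 and 0.21, adjusted p = 5.18e-04), CHEK1 (-0.68, 0.02 and -0.09, adjusted p = 0.0126), MDC1 (-0.52, 0.44 and 0.25, adjusted p = 0.00811) and SCLT1 (-0.55, 0.12 and 0.09, adjusted p = 0.00378).

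Those with their widest change in pair 2 were CASP8 (adjusted p = 0.00156), CASP9 (6.70e-04), CASP1 (5.15e-04), BID (0.00282), WWC1 (7.44e-04), TAOK3 (0.0118), AMOTL2 (3.22e-05) and MDM4 (5.62e-04). STK38L had opposite changes in pairs 1 and 2 (1.10 and -0.84, adjusted p = 3.43e-06). The YAP targets ANKRD1 (1.78, 0.11 and -0.34, adjusted p = 1.13e-07), CCN1 (1.27, -0.41 and -0.92, adjusted p = 1.16e-08) and CCN2 (1.30, 0.21 and -0.84, adjusted p = 7.72e-09) were high in pair 1 alone. The p53 targets rose in every pair and differed in size, with the largest rise in pair 2, for MDM2 (adjusted p = 3.39e-05), CDKN1A (6.19e-04), BTG2 (1.45e-08) and SPATA18 (1.64e-07). No cause of these differences was tested, and the pairs also differ in the clones themselves and in the Hoechst staining of pair 2, which cannot be told apart.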

How the results depend on the processing

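The 2 calls among the 8, CASP2 in pair 1 and USP28 in pair 2, held with a pseudocount of 0.5, no minimum, TMM scaling and limma-voom, which kept all 18 libraries, and with the libraries of the pair only. With the replicate block CASP2 had an adjusted p = 0.0168 and USP28 0.0214, and the block changed no other call among the 8. A replicate block within pair 2 alone, chosen after seeing the data, gave USP28 an adjusted p = 0.0281 there and changed no call among the 8. On the RPKM scale with 1 RPKM only PIDD1, CASP2 and TP53BP1 could be tested, and the genes that rose and fell numbered 1031 and 996 in pair 1, 2085 and 1556 in pair 2, and 193 and 137 in pair 3, with 3780 that differed between pairs. With the libraries of the pair only, 4850 and 4383 genes rose and fell in pair 1 and 128 and 159 in pair 3, and the 8 had 2 rises and 2 falls in pair 1, and 1 rise and 3 falls in pair 2. Without library A of 2N-3 and library C of 4N-3 the same member counts were 2 and 2 in pair 1, 1 and 3 in pair 2 and 1 and 0 in pair 3, with 4 that differed between pairs, and the genes numbered 4883 and 4496 in pair 1 and 2421 and 1846 in pair 3.

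Leaving out 1 library at a time gave 1508 (without C of 2N-1) to 4229 (without A of 2N-3) genes that rose and 1341 to 3823 that fell in pair 1, 3896 to 6161 and 4113 to 6524 in pair 2, 496 to 1675 and 435 to 1216 in pair 3, and 8185 to 12904 that differed. The 8 then had 0 to 1 rises and 0 to 2 falls in pair 1, 0 to 1 and 0 to 3 in pair 2, and 0 to 1 and 0 in pair 3, and 1 to 4 differed. The change of PIDD1 in pair 1 had ends of -0.031 and 0.16, and that in pair 2 lay between -0.093 and 0.014. In pair 3 the ranges were -0.12 to 0.16 for CRADD, -0.17 to 0.35 for ANKRD26, -0.0082 to 0.46 for LATS1 and -0.17 to 0.17 for USP28, and A of 2N-3 left out gave 0.16 for CRADD and the low end for the other 3. Without both doubted libraries the signs of pair 3 turned for PIDD1 (0.042), CRADD (0.12), ANKRD26 (-0.13), USP28 (-0.12) and TP53BP1 (-0.065), none of which passed.

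Across clones, 7 genes rose and 4 fell with no pair block, and 111 and 82 without pair 2, none of them among the 8. Signs turned there without both doubted libraries for PIDD1 (0.0094), CASP2 (0.012) and TP53BP1 (-0.067), without pair 1 for CRADD (-0.037), CASP2 (0.28) and TP53BP1 (-0.0046), without pair 2 for ANKRD26 (0.047) and without pair 3 for TP53BP1 (-0.068). The planned quasi-likelihood count test was not run. The lowest read count of any of the 8 in a library was 298, for CRADD.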
